A study of Mus musculus with 24 samples.

Results

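Chromatin remodelling complexes use the energy of ATP to slide, evict or exchange nucleosomes, and so set which stretches of DNA polymerases and transcription factors can reach. They are grouped by their ATPase into SWI/SNF, ISWI, CHD and INO80 families, and most work only when the ATPase is joined by partner subunits that choose where the complex goes. In B lymphocytes such complexes are known to act in activation, proliferation and rearrangement of the immunoglobulin loci. The genes described here are those of the RNA-seq table whose symbols start with Smarc, Ino80, Chd and a number or Arid and a number, together with named partner genes (Baz1a, Baz1b, Baz2a, Bptf, Rsf1, Pbrm1, Brd7, Brd9, Ep400, Ruvbl1, Ruvbl2, Actl6a and Dpf2). This rule found 52 of the 14106 genes in the table, of which 17 were assigned to SWI/SNF, 6 to ISWI, 9 to CHD and 8 to INO80. The 12 remaining members carry a matching name but belong to none of the 4 families. Srcap, which the rule also names, and Smarca1 had no row to analyse here.

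RNA was measured in 6 poly(A) libraries of primary B cells taken from mouse spleen and stimulated in culture with interleukin 4 and lipopolysaccharide. After 28 h of activation all cells received 2 µM 4-hydroxytamoxifen, and they were collected 32 h later, at 60 h. The 3 Spt5-depleted libraries came from Supt5hFl/- Rosa26ERT2-cre/+ cells, which hold 1 floxed and 1 null allele of the Spt5 gene, and the 3 WT libraries from Rosa26ERT2-cre/+ cells. Both groups therefore carried the tamoxifen-activated Cre, expressed from a locus that is active in most cell types, and both were given the drug, while the null allele was in the depleted group only. Spt5 is the large subunit of DSIF, the factor that accompanies RNA polymerase II through pausing and elongation, and the comparison asks which mRNAs differ once its gene is targeted. Whether the libraries of a group are separate animals is not stated, so the p-values measure the spread between libraries, which may be technical.

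The WT libraries held 23340978 to 25649611 counts and the depleted libraries 17306549 to 21441575. Levels are given as CPM, the count of a gene relative to the scaled total of its library, after TMM scaling, and a gene is said to rise or fall where edgeR's quasi-likelihood test gave an adjusted p under 0.05 over all 12024 genes tested. Supt5, the targeted gene, was at 159.9, 159.6 and 192 CPM in WT libraries and at 10.6, 9.18 and 13.6 CPM in the depleted ones. Among all tested genes 31.8% rose and 30.6% fell (3823 and 3681 genes, 62.4% together). With library totals in place of TMM these were 4962 and 2694 genes, because under that scaling the median over all genes is 0.16 on the log2 scale, against 0.00 with TMM. B cell markers were expressed in both groups: Cd79b, part of the B cell receptor, was at 1579 to 1739 CPM in WT and 1616 to 1917 CPM in depleted libraries, and Pax5, the B lineage factor, at 549 to 657 CPM and 518 to 637 CPM. Among these markers Cd22 and Blnk fell, with log2 fold changes of -1.48 and -0.74. The B cell list of 8 genes summed to 5829 to 5904 CPM in WT and 4610 to 5269 CPM in depleted libraries. Of 6 tested macrophage and monocyte markers 4 rose, and the 8 of this list with a row summed to 23.7 to 32.5 CPM in WT and 28.2 to 63.3 CPM in depleted libraries. Some markers of other cell types moved too. Among 4 tested dendritic cell genes Xcr1 (0.77 to 1.07 CPM in WT, 5.50 to 6.37 CPM depleted) and Zbtb46 rose. The other 2 did not pass, Ccr9 and the more abundant Flt3 (means of 86.7 CPM in WT and 82.1 CPM depleted). Among 9 tested T cell genes Lck fell (log2 fold change -0.89) and 8 did not pass. Among 3 tested NK cell genes Gzma fell (log2 fold change -0.95), Eomes rose and 1 did not pass. Of the 2 tested stromal and endothelial genes Pecam1 fell and Cdh5 rose. The summed levels of the T cell list were 46.6 to 49.6 CPM in WT and 21.7 to 43.5 CPM in depleted libraries, of the NK cell list 11.3 to 16.4 and 6.66 to 10.6 CPM, and of the dendritic cell list 88.2 to 103 and 98.6 to 99.9 CPM. The part of these cells in the results below was not tested. In a bulk culture fewer cells of a type and less RNA per cell cannot be told apart. Xist was at 468 to 915 CPM in WT and at 1.00 to 1.73 CPM in depleted libraries, and 4 Y-linked genes summed to 0.14 CPM or less against 128 to 148 CPM, so genotype and the sex of the source cells cannot be told apart. None of the 38 members matched in the RefSeq promoter table lies on the X or Y chromosome.

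Of the 52 members 49 had enough counts to be tested. Of these, 13 rose (26.5%, against 31.8% of all tested genes), 19 fell (38.8%, against 30.6%) and 17 did not pass, so that 32 of 49 changed in either direction against 62.4% of all tested genes. Most changes were small: 1 member rose and 3 fell by at least 2-fold, where 9.87% and 7.63% of all tested genes did so. The falls of that size were those of Ruvbl1, Chd1l and Brd9, and the rise was that of the antisense transcript Ino80dos. The median log2 fold change over the tested members was -0.17, against 0.00 for all tested genes. With library totals it was -0.01, against 0.16 for all tested genes. That scaling gave 16 higher and 16 lower of 49 members, and 4962 higher and 2694 lower of all 12024 tested genes. Medians given below with library totals stand beside the same 0.16. For 36 of 49 members the 2 groups did not overlap, 15 with all depleted libraries higher and 21 with all lower, where 67.5% of all tested genes had no overlap. Summed over all 52 members, the level was 5051 to 5452 CPM in WT and 4533 to 5044 CPM in depleted libraries. At an adjusted p under 0.05 the authors' deposited table has 11 higher and 20 lower of the 52 members. Of all 14106 genes it has 3719 higher and 3622 lower.

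**Figure D1:**
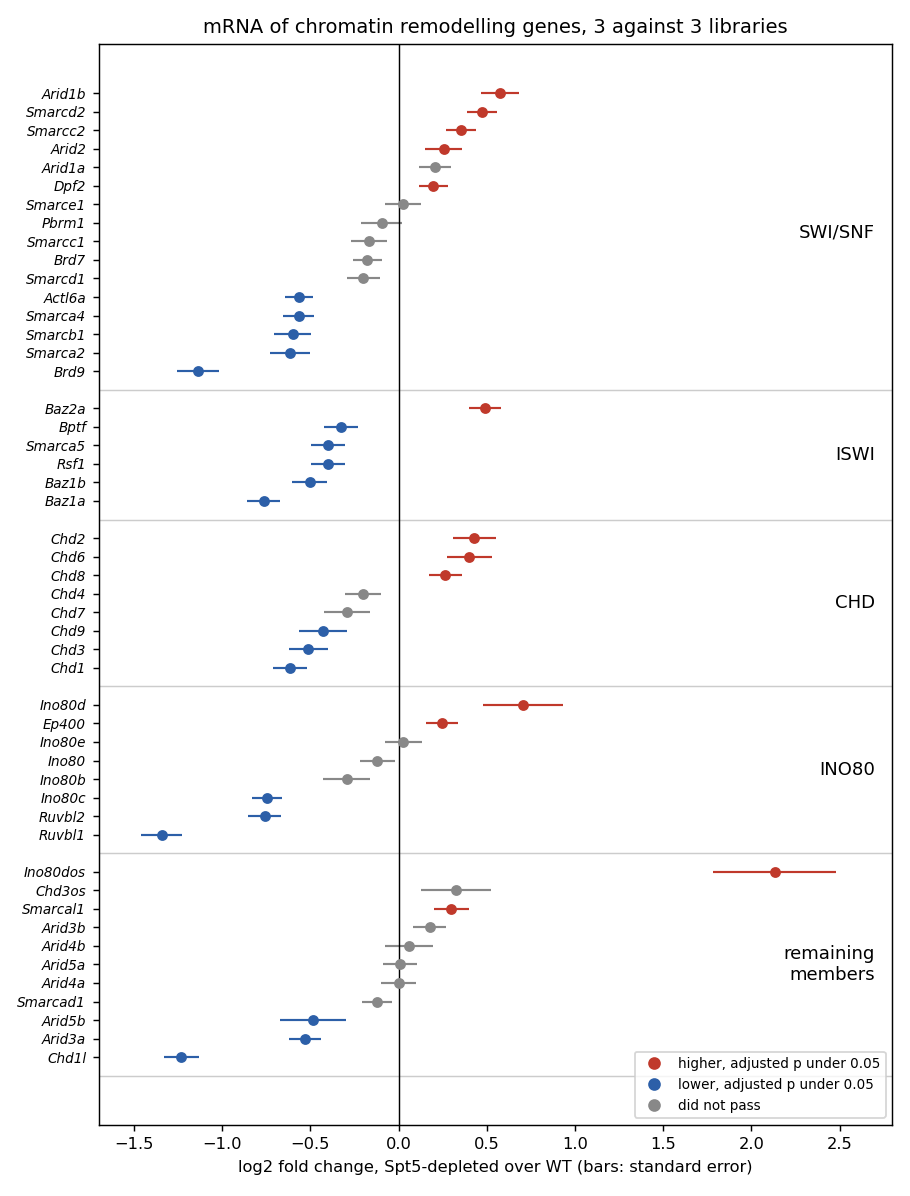
Log2 fold change (Spt5-depleted over WT, 3 libraries each) of the 49 tested members by family, with standard errors as bars; red and blue points passed an adjusted p of 0.05 and grey points did not. ISWI genes sit left of 0 apart from Baz2a at 0.49, while the SWI/SNF genes spread from -1.14 (Brd9) to 0.58 (Arid1b).

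One depleted library stood apart for these genes. Spt5-depleted replicate 3 was the highest of its group for 37 of 49 tested members (75.5%), whereas it was the highest for 35.2% of all tested genes. In the WT group, replicate 1 was the highest for 27 of 49 members (55.1%), against 32.6% of all tested genes. Without Spt5-depleted replicate 3, 6 of 50 tested members rose and 20 fell, where 3485 of 12240 tested genes rose and 3338 fell. Among the members the count of rises therefore depended on this library more than the count of falls did.

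Promoter sequences are shown for 3 genes that fell, Brd9, Ruvbl1 and Ruvbl2, and for the ISWI partner Baz2a, which rose while the other ISWI genes fell. Each is 250 bases before to 50 after the RefSeq start of the gene, in the GRCm38.p6 build, read 5′ to 3′ on the gene's strand. They lie at chr13:73937561-73937860, plus strand (Brd9), chr6:88465159-88465458, plus strand (Ruvbl1), chr7:45434415-45434714, minus strand (Ruvbl2) and chr10:128092533-128092832, plus strand (Baz2a). Capitals mark matches to 1 of 6 motifs searched on both strands: the E-box CACGTG, the TATA box TATAAA, the ETS core CCGGAAG, the YY1 core AAGATGGC, the CCAAT box with its flank CCAATNNG and the core of the NRF1 site.
Brd9: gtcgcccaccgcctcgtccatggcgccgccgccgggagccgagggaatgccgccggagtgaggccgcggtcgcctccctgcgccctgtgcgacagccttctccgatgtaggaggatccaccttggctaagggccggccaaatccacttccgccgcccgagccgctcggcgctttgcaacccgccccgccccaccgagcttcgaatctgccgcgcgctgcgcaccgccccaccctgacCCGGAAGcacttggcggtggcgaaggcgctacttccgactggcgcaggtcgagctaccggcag
Ruvbl1: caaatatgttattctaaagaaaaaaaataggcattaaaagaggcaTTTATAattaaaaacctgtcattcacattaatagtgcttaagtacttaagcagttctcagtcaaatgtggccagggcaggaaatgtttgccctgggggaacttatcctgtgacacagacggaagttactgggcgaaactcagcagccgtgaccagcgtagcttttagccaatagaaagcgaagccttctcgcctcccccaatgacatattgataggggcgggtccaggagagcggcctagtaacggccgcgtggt
Ruvbl2: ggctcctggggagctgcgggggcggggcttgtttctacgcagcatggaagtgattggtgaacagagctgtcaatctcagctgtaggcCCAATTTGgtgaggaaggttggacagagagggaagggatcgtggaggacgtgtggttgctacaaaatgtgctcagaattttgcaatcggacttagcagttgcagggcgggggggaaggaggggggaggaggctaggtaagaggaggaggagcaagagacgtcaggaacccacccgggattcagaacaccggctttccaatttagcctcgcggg
Baz2a: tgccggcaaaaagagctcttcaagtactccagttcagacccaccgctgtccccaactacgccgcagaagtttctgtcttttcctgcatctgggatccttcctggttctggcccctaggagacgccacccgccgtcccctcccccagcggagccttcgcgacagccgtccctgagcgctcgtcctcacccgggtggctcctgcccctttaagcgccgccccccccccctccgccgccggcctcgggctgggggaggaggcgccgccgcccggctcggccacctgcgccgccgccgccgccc
The Brd9 window held 1 ETS core, and that of Baz2a none of the 6. Ruvbl1 had a TATAAA match on the opposite strand, near the 5′ end of the window, and Ruvbl2 a CCAAT box with its flank. Ruvbl1 and Ruvbl2 also held CCAAT without that flank, which was not marked. The window of Chd1l, which fell further than Brd9, is not printed and held none of the 6 (59.7% guanine and cytosine). Guanine and cytosine made up 72% of the Brd9 window and 71% of that of Baz2a, with 40 and 30 CpG steps, but 45.7% and 57.3% of those of Ruvbl1 and Ruvbl2, with 11 and 12. A RefSeq promoter was found for 38 members, 10 that rose, 13 that fell and 15 others. The E-box, which MYC can bind, was in 0 of the 10, 1 of the 13 and 2 of the 15, and in 7.15% of 32851 RefSeq promoters of this length. ETS cores were in 1, 2 and 3 (8.86% of all promoters), CCAAT boxes in 1, 2 and 4 (14%), TATA boxes in 1, 2 and 0 (13.6%), YY1 cores in 0, 1 and 2 (2.75%) and NRF1 cores in none of the 38 (0.971%). These matches are letters in a window and show no binding.

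SWI/SNF genes went both ways. Of 16 tested genes 5 rose and 5 fell (31.2% each, close to the 31.8% and 30.6% of all tested genes), and the median log2 fold change was -0.13 (0.03 with library totals). The genes that fell were the ATPases Smarca4 and Smarca2, the core subunit Smarcb1, the actin-related subunit Actl6a and Brd9. Those that rose were Arid1b, Smarcd2, Smarcc2, Arid2 and Dpf2, of which 3 passed without Spt5-depleted replicate 3.

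Smarca4, which encodes the ATPase BRG1, was at 224, 197 and 210.1 CPM in WT libraries and at 133, 140.3 and 153 CPM in the depleted libraries. Every depleted library was below every WT library, and the fall was 1.48-fold (log2 fold change -0.57 ± 0.09 SE, adjusted p = 6.13e-05). Smarca2, which encodes BRM, the alternative ATPase, had 26.9, 29.5 and 27.0 CPM in WT and 18.6, 15.5 and 20.4 CPM in depleted libraries. It too had no overlap between groups, with a log2 fold change of -0.62 ± 0.11 SE (adjusted p = 2.80e-04), although the table adds a suffix to its name, read here as a possible overlap with a neighbouring gene. The groups overlapped in the balance of the 2 ATPases: the log2 ratio of Smarca4 to Smarca2 counts was 2.92 ± 0.16 in WT and 2.98 ± 0.18 in depleted libraries (SD, n = 3 each; exact permutation test, two-sided, p = 0.7), and its difference, 0.06, turned to -0.03 without WT replicate 2 and to -0.05 without Spt5-depleted replicate 2.

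Smarcb1, a core subunit that contacts the nucleosome, was measured at 163, 169 and 215 CPM in WT and 128, 114 and 119 CPM in depleted libraries. The WT values were spread more widely than the depleted ones but did not overlap with them (log2 fold change -0.60 ± 0.11 SE, adjusted p = 1.83e-04). Actl6a, an actin-related protein that SWI/SNF shares with INO80-type complexes, fell from 148 ± 5.85 to 99.7 ± 1.81 CPM (SD, n = 3 per group; log2 fold change -0.56, adjusted p = 2.76e-05). Of the 6 tested core subunits Smarcb1 alone fell, and 2, Smarcc2 and Smarcd2, rose. Smarce1 had 205 ± 23.8 and 209 ± 18.2 CPM (SD, n = 3 per group; adjusted p = 0.839), and Smarcc1 had 216 ± 30.1 and 192 ± 13.8 CPM (adjusted p = 0.173).

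Brd9, the bromodomain subunit that defines the non-canonical BAF complex, showed the steepest fall among SWI/SNF genes. Its level was 24.3, 26.8 and 30.3 CPM in WT libraries and 11.0, 13.4 and 12.5 CPM in the depleted ones. All depleted libraries were at less than the lowest WT value, a 2.20-fold fall (log2 fold change -1.14 ± 0.12 SE, adjusted p = 1.29e-06). Pbrm1 and Brd7, bromodomain subunits of the PBAF complex, did not pass (log2 fold changes -0.10 and -0.18, adjusted p = 0.490 and 0.0701). Brd7 passed when WT replicate 1 was left out, and Pbrm1 when WT replicate 3 was (adjusted p = 0.0460 and 0.0288). The log2 ratio of Pbrm1 to Brd9 counts went from 2.29 ± 0.44 to 3.35 ± 0.18 (SD, n = 3 each), a 2.08-fold shift without overlap (exact permutation test, two-sided, p = 0.1, the smallest that 3 against 3 libraries can give).

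Arid1b, which encodes a large DNA-binding subunit of BAF, had the largest rise among SWI/SNF genes. It was at 108, 101 and 82.5 CPM in WT and 138, 135 and 161 CPM in depleted libraries, all of which were above the WT values (log2 fold change 0.58 ± 0.11 SE, adjusted p = 2.92e-04). Its alternative in BAF, Arid1a, was at 236, 219 and 219.6 CPM in WT and 245, 243 and 289 CPM in depleted libraries. These groups did not overlap either, but Arid1a did not pass (log2 fold change 0.21 ± 0.09 SE, adjusted p = 0.0605), and it passed with library totals, with a minimum of 5 CPM and without WT replicate 1 (adjusted p = 0.00350, 0.0465 and 0.0456). Arid2, the counterpart in PBAF, had 76.6, 71.6 and 57.1 CPM in WT and 79.3, 79.2 and 86.5 CPM in depleted libraries. The depleted values were above the WT values by a small margin (log2 fold change 0.26 ± 0.11 SE, adjusted p = 0.0472), and the call was lost when any library other than WT replicate 1 was left out. Without WT replicate 3, the lowest, the log2 fold change of Arid2 was 0.14 (adjusted p = 0.176).

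Dpf2, a zinc finger subunit of BAF, was near the threshold as well (log2 fold change 0.20 ± 0.08 SE, adjusted p = 0.0491), and kept its call when WT replicate 3 was left out but not without any other library. Smarcd2, a subunit with known roles in blood cell differentiation, stood at 159.6, 147 and 168 CPM in WT and at 233, 211 and 215 CPM in depleted libraries. The 2 groups were far apart relative to their spread (log2 fold change 0.47 ± 0.09 SE, adjusted p = 2.47e-04). Smarcc2, a scaffold subunit, was nearly constant over the WT libraries at 95.7, 95.1 and 93.6 CPM and was at 122, 114 and 128 CPM in depleted libraries. It rose in every depleted library (log2 fold change 0.35 ± 0.08 SE, adjusted p = 0.00182). Smarcd1, the closest relative of Smarcd2 here, had a log2 fold change of -0.20 (adjusted p = 0.0768). Smarcd3, which serves in heart and neuronal complexes, had 3 to 15 counts per library and was not tested.

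**Figure D2:**
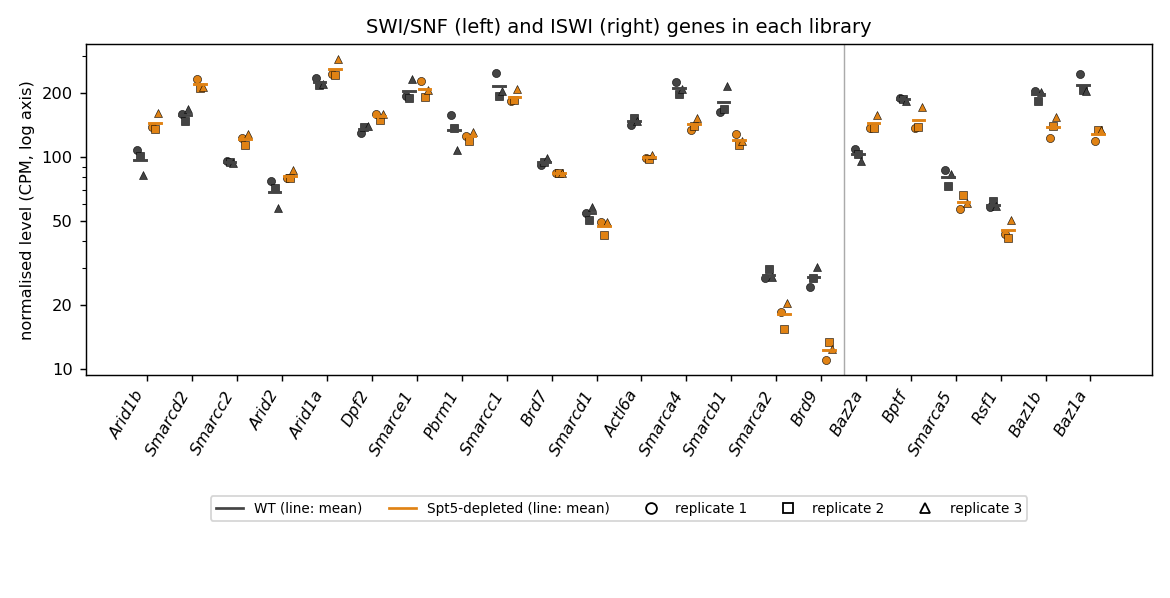
Normalised level (CPM, log axis) of each tested SWI/SNF gene (left of the line) and ISWI gene (right) in the 3 WT and 3 Spt5-depleted libraries; marker shapes are replicate numbers and short lines are group means. Brd9 (24.3 to 30.3 against 11.0 to 13.4 CPM) has the widest gap between the groups.

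Pairs of genes were also compared as ratios of counts inside each library, which no scaling can change. The 11 pairs over the 4 families are mostly paralogs or alternative subunits, while Pbrm1 with Brd9 and Ino80 with Ep400 belong to different complexes. The groups did not overlap for 9 of them (67.5% of single genes had no overlap, and no such share was computed for pairs), each with p = 0.1 and an adjusted p = 0.122 (exact permutation tests, two-sided, Benjamini-Hochberg). None could pass, since 0.1 is the smallest p that 3 against 3 libraries can give. The ratio of Smarcd1 to Smarcd2 was 0.341, 0.345 and 0.344 in WT and 0.212, 0.203 and 0.230 in depleted libraries, which is lower by 0.67 on the log2 scale. For Smarcc1 to Smarcc2 it was 2.61, 2.03 and 2.18 against 1.5, 1.63 and 1.63, and for Arid1a to Arid1b 2.19, 2.16 and 2.66 against 1.78, 1.80 and 1.79. Each of these 3 pairs therefore held more of its second member in every depleted library than in any WT library. Arid1a to Arid2 overlapped (log2 difference -0.06, exact permutation p = 0.9), and this difference was 0.05 without WT replicate 3.

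**Figure D3:**
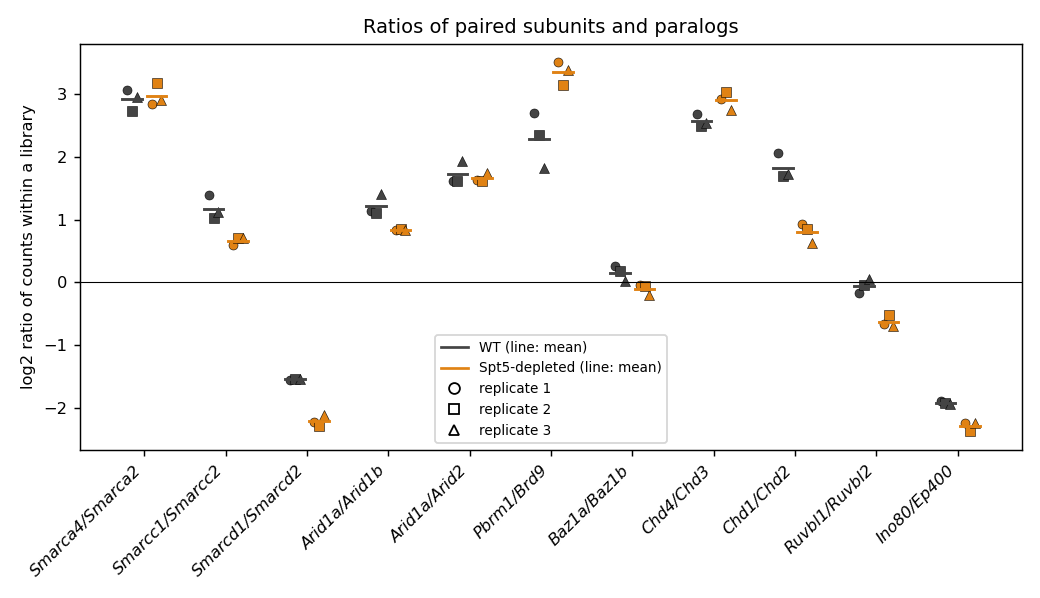
Log2 ratio of the counts of 2 genes within a library, for 11 pairs of paralogs, alternative subunits or subunits of related complexes, in WT and Spt5-depleted libraries; marker shapes are replicate numbers and short lines are group means. Only Smarca4/Smarca2 and Arid1a/Arid2 overlap between the groups, and Pbrm1/Brd9 and Chd1/Chd2 move by 1.06 and -1.03.

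ISWI genes, whose complexes space nucleosomes evenly and assist replication, gave 5 falls and 1 rise, that of Baz2a, among 6 genes (83.3% and 16.7%, where 30.6% of all tested genes fell and 31.8% rose). All 6 had no overlap between groups, as did 67.5% of all tested genes. The median log2 fold change was -0.40, and -0.24 with library totals. The ATPase Smarca5, known as SNF2H, was at 86.5, 72.7 and 82.6 CPM in WT and 56.8, 65.8 and 60.6 CPM in depleted libraries. It fell 1.32-fold (log2 fold change -0.40 ± 0.09 SE, adjusted p = 0.00196), and with library totals the log2 fold change was -0.24 (adjusted p = 0.0432). The pseudogene Smarca5-ps, to which such reads could also be assigned, had 4 to 16 counts per library and was not tested.

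The partners decide what the ISWI ATPase does. Baz1a, which joins it in the ACF and CHRAC complexes, had 245, 208 and 204 CPM in WT and 118, 134 and 134 CPM in depleted libraries. This was the largest ISWI fall, 1.70-fold, with all depleted libraries far below WT (log2 fold change -0.77 ± 0.10 SE, adjusted p = 7.10e-06). Baz1b, the Williams syndrome transcription factor of the WICH complex, was at 205, 184 and 202 CPM in WT and at 122, 139 and 155 CPM in depleted libraries (log2 fold change -0.50 ± 0.10 SE, adjusted p = 3.64e-04). The ratio of Baz1a to Baz1b counts was 1.2, 1.13 and 1.01 in WT and 0.967, 0.962 and 0.867 in depleted libraries, again without overlap.

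Rsf1, the partner in the RSF complex, was lower in each depleted library, at 43.1, 41.6 and 50.5 CPM against 57.8, 61.9 and 58.9 CPM in WT. Its log2 fold change was -0.40 ± 0.10 SE (adjusted p = 0.00204), and -0.24 with library totals (adjusted p = 0.0477). Bptf, the largest subunit of NURF and a reader of methylated histone H3, fell less, from 187 ± 3.04 to 149 ± 19.9 CPM (SD, n = 3 per group; log2 fold change -0.33, adjusted p = 0.00884). Spt5-depleted replicate 3 held 172 CPM of Bptf against 137 and 138 CPM in the other depleted libraries, and the call was lost without Spt5-depleted replicate 1 or 2 (adjusted p = 0.0537 and 0.0575) and with library totals (log2 fold change -0.16, adjusted p = 0.172). Baz2a, which as TIP5 forms the NoRC complex at silent ribosomal RNA genes, stood at 109, 103 and 95.5 CPM in WT and at 137, 136 and 158 CPM in depleted libraries. It rose 1.40-fold (log2 fold change 0.49 ± 0.09 SE, adjusted p = 3.08e-04).

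CHD ATPases, which carry paired chromodomains, rose and fell in equal number, near the background. Of 8 tested genes Chd2, Chd6 and Chd8 rose, Chd1, Chd3 and Chd9 fell, and Chd4 and Chd7 did not pass (37.5% each way, against 31.8% higher and 30.6% lower among all tested genes). Without Spt5-depleted replicate 3, the highest depleted library for all 8, 0 rose and 4 fell, where 3485 and 3338 of 12240 genes did. With all libraries, the median log2 fold change of the CHD genes was -0.25 (-0.09 with library totals). Chd5, a neuronal gene, had 4, 0 and 0 counts in WT and 0, 4 and 5 counts in depleted libraries and was not tested.

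Chd1 and Chd2 are close paralogs that act at transcribed genes, where CHD1 is known to travel with the elongating polymerase, and they moved in opposite directions. Chd1 was at 178, 158 and 145 CPM in WT and 96.8, 103 and 113 CPM in depleted libraries. It had no overlap and fell 1.53-fold (log2 fold change -0.62 ± 0.10 SE, adjusted p = 6.21e-05). Chd2 had 42.6, 48.6 and 43.7 CPM in WT and 50.6, 57.3 and 73.6 CPM in depleted libraries. It rose (log2 fold change 0.43 ± 0.12 SE, adjusted p = 0.00789), but Spt5-depleted replicate 3 was well above the other depleted libraries, and without it the log2 fold change was 0.27 (adjusted p = 0.0535). The Chd2 row carries the overlap suffix. Within each library, the ratio of Chd1 to Chd2 counts was 4.16, 3.24 and 3.32 in WT and 1.91, 1.80 and 1.54 in depleted libraries, a 2.04-fold shift (p = 0.1, exact permutation test).

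Chd3 and Chd4 are the ATPases of NuRD, which joins remodelling to histone deacetylation. Chd4 was at 568, 429 and 490.5 CPM in WT and 412, 423 and 458 CPM in depleted libraries. The groups overlapped, and Chd4 did not pass (log2 fold change -0.20 ± 0.10 SE, adjusted p = 0.0989) except without WT replicate 2 (adjusted p = 0.0176). Its row has the overlap suffix. Chd3 had 88.7, 75.8 and 84.2 CPM in WT and 54.5, 51.5 and 68.4 CPM in depleted libraries, which did not overlap (log2 fold change -0.51 ± 0.11 SE, adjusted p = 8.95e-04). The ratio of Chd4 to Chd3 counts was 6.40, 5.65 and 5.83 in WT and 7.56, 8.21 and 6.70 in depleted libraries. The antisense transcript Chd3os was 0.32 higher on the log2 scale (adjusted p = 0.169, not passed), and reads of the 2 strands cannot be told apart because the strand setting of the counting is not given in the sources used here.

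Chd6 to Chd9 form the remaining subfamily, in which CHD7 is the CHARGE syndrome gene and CHD8 a regulator of beta-catenin targets. Chd8 was at 92.8, 90.8 and 89.7 CPM in WT and at 101, 104 and 124 CPM in depleted libraries, and Chd6 at 21.6, 21.6 and 19.3 CPM and at 24.7, 24.3 and 33.5 CPM. Both rose without overlap (log2 fold changes 0.26 ± 0.09 and 0.40 ± 0.13 SE, adjusted p = 0.0226 and 0.0122). In each, Spt5-depleted replicate 3 was the highest library, and without it neither passed (log2 fold changes 0.17 and 0.24, adjusted p = 0.133 and 0.10). Chd8 was lost without WT replicate 2 as well (adjusted p = 0.0538). Chd9 had 82.8, 72.1 and 56.9 CPM in WT and 46, 51.0 and 60.4 CPM in depleted libraries. Here the lowest WT library was below the highest depleted one, although the fall passed (log2 fold change -0.43 ± 0.14 SE, adjusted p = 0.0162). It did not pass without WT replicate 1 or without either of the depleted replicates 1 and 2 (adjusted p = 0.0564, 0.0686 and 0.0538) or with library totals (log2 fold change -0.26, adjusted p = 0.128). Chd7 was at 59.6, 55.3 and 50.5 CPM in WT and 38.3, 40.8 and 55.7 CPM in depleted libraries, where replicate 3 alone reached the WT range. It did not pass (log2 fold change -0.29 ± 0.13 SE, adjusted p = 0.0647), and without Spt5-depleted replicate 3 it did (log2 fold change -0.47, adjusted p = 0.00354).

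**Figure D4:**
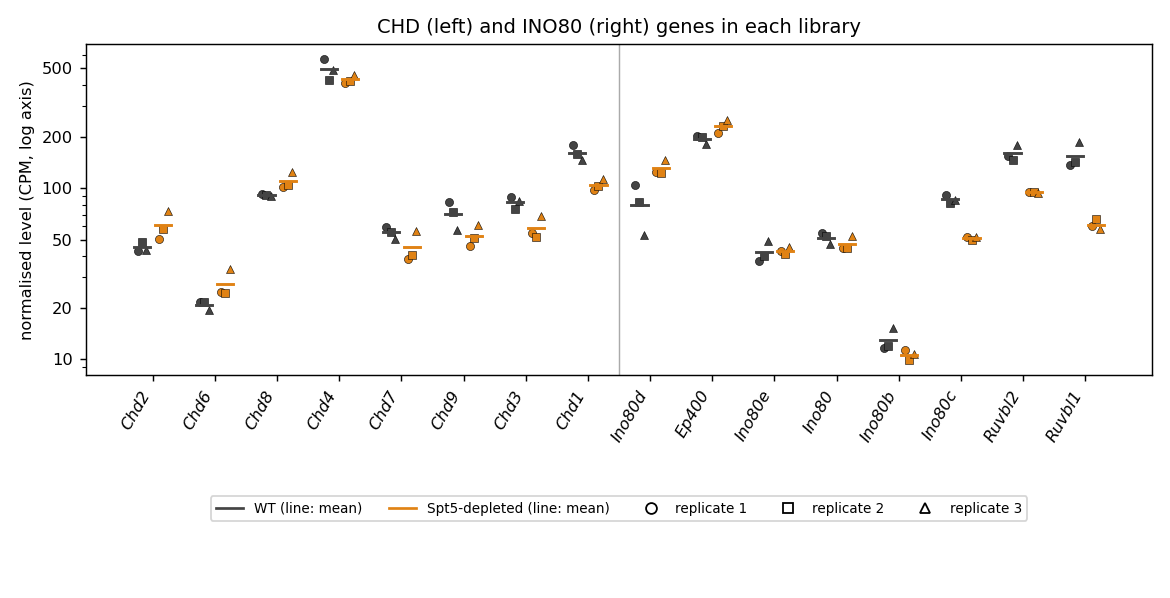
Normalised level (CPM, log axis) of each tested CHD gene (left of the line) and INO80 gene (right) in the 3 WT and 3 Spt5-depleted libraries; marker shapes are replicate numbers and short lines are group means. Ruvbl1 shows the widest gap (137 to 186 against 57.6 to 65.5 CPM), and replicate 3 (triangles) is the highest depleted library for every CHD gene drawn.

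INO80-type complexes move nucleosomes and exchange the histone variant H2A.Z, and all of them contain the AAA+ ATPases RUVBL1 and RUVBL2. Of 8 tested genes 3 fell, Ruvbl1, Ruvbl2 and Ino80c, and 2 rose, Ino80d and Ep400, neither of which passed without Spt5-depleted replicate 3. These shares, 37.5% and 25%, lie near the 30.6% and 31.8% of all tested genes. The median log2 fold change was -0.21 (-0.05 with library totals). The large ATPases did not fall with the RUVBL genes. Ino80 itself was at 54.5, 52.4 and 47.0 CPM in WT and at 44.3, 44.4 and 52.6 CPM in depleted libraries. These ranges overlapped (log2 fold change -0.12 ± 0.10 SE, adjusted p = 0.301).

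Ruvbl1 had 137, 142 and 186 CPM in WT and 60.1, 65.5 and 57.6 CPM in depleted libraries. Each depleted library was at less than the lowest WT value, and the 2.54-fold fall was the largest among the members (log2 fold change -1.34 ± 0.12 SE, adjusted p = 2.85e-07). Ruvbl2, whose product alternates with RUVBL1 in a ring, was at 154, 146 and 179.7 CPM in WT and at 95.1, 94.5 and 93.7 CPM in depleted libraries. The depleted values were nearly identical and all below WT (log2 fold change -0.76 ± 0.09 SE, adjusted p = 5.52e-06). Ruvbl1 fell further than Ruvbl2 in the same libraries: the ratio of their counts was 0.891, 0.970 and 1.04 in WT and 0.632, 0.693 and 0.615 in depleted libraries (p = 0.1, exact permutation test, adjusted p = 0.122). WT replicate 3 was the highest library for both genes. The RUVBL proteins also serve in other assemblies, such as the R2TP co-chaperone, so these genes are not markers of remodelling complexes alone.

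Ino80c, a subunit of the INO80 complex, fell without overlap, from 90.8, 81.6 and 85.3 CPM in WT to 51.8, 49.7 and 52.0 CPM in depleted libraries (log2 fold change -0.75 ± 0.09 SE, adjusted p = 3.02e-06). Ino80b and Ino80e, further subunits, did not pass (log2 fold changes -0.29 and 0.03, adjusted p = 0.0686 and 0.834), and Ino80b passed without WT replicate 1 (adjusted p = 0.0331). Ino80d was at 104, 82.8 and 53.1 CPM in WT and 124, 122 and 146 CPM in depleted libraries. The WT libraries were widely spread but all below the depleted ones, and the rise had a wide error (log2 fold change 0.71 ± 0.23 SE, adjusted p = 0.0285). It was lost without Spt5-depleted replicate 1 or 3 (adjusted p = 0.0721 and 0.0720). Ino80dos, an antisense transcript named for the same locus, had 10, 14 and 10 counts in WT and 31, 34 and 71 in depleted libraries (log2 fold change 2.13 ± 0.35 SE, adjusted p = 9.41e-05). Its row carries the overlap suffix. Where Ino80d and Ino80dos overlap, which was not examined, their reads cannot be told apart without the strand setting.

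Ep400, the ATPase of the TIP60-p400 complex, rose slightly, with 203, 198 and 181 CPM in WT and 209, 231 and 250.03 CPM in depleted libraries. No depleted library was below a WT library, but the margin between the groups was narrow (log2 fold change 0.25 ± 0.09 SE, adjusted p = 0.0274). The call was lost without WT replicate 3 and without either of the depleted replicates 2 and 3 (adjusted p = 0.0739, 0.0826 and 0.126), and this row has the overlap suffix. Against Ino80 the balance was lower in each depleted library: the ratio of Ino80 to Ep400 counts was 0.269, 0.264 and 0.260 in WT and 0.212, 0.192 and 0.211 in depleted libraries.

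Among the 12 remaining members, 2 rose and 3 fell of 11 tested (18.2% and 27.3%, against 31.8% and 30.6% of all tested genes). Chd1l, also called ALC1, a remodeller recruited by poly(ADP-ribose) at DNA damage, was at 42.5, 43.1 and 45.9 CPM in WT and 17.2, 18.5 and 20.3 CPM in depleted libraries. The groups were far apart, a 2.35-fold fall with the smallest adjusted p of all members (log2 fold change -1.23 ± 0.10 SE, adjusted p = 8.75e-08). Smarcal1, which rewinds DNA at stalled replication forks, had 34.6, 28.6 and 34.0 CPM in WT and 39.5, 40.6 and 39.6 CPM in depleted libraries. It rose (log2 fold change 0.30 ± 0.10 SE, adjusted p = 0.0149), but with WT replicate 2 left out the adjusted p was 0.0837, and with Spt5-depleted replicate 2 left out it was 0.0530. Smarcad1, a remodeller known in heterochromatin maintenance and DNA end resection, was at 74.3, 68.3 and 68.3 CPM in WT and at 66.7, 62.7 and 64.3 CPM in depleted libraries. These groups were close without overlapping, and it did not pass (log2 fold change -0.12 ± 0.08 SE, adjusted p = 0.215).

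The 6 ARID genes outside SWI/SNF encode DNA-binding proteins that share only the ARID domain with Arid1a. Arid3a, known as Bright, a B cell factor that binds the immunoglobulin heavy chain locus, was at 71.9, 65.8 and 64.0 CPM in WT and 45.1, 45.1 and 49.4 CPM in depleted libraries. It fell in every depleted library (log2 fold change -0.53 ± 0.09 SE, adjusted p = 1.20e-04). Arid5b had 48.4, 56.4 and 32.6 CPM in WT and 29.1, 31.1 and 37.8 CPM in depleted libraries. The groups overlapped, and its call (log2 fold change -0.48 ± 0.19 SE, adjusted p = 0.0490) was lost without WT replicate 1 or 2 or Spt5-depleted replicate 1 or 2 and with library totals, with adjusted p from 0.114 to 0.177. Arid3b, Arid4a, Arid4b and Arid5a did not pass, with log2 fold changes of 0.18, -0.00, 0.06 and 0.01, and Arid3b passed with library totals (log2 fold change 0.34, adjusted p = 0.00793).

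Partner genes that the name rule does not cover were described from lists of complex subunits. Of all tested genes 31.8% rose and 30.6% fell, and of 8 tested SWI/SNF partners 4 rose and 2 fell (median log2 fold change 0.14). Dpf1, with 1 to 15 counts per library, was not tested. With no filter, or with a depleted library left out, Dpf1 was included and 3 of 9 genes were lower. The median was then -0.06 with no filter and -0.03, 0.06 and -0.18 without Spt5-depleted replicates 1, 2 and 3. Phf10, a PBAF subunit, fell the most of the 8, at 127, 173 and 176 CPM in WT and 50.9, 53.6 and 53.3 CPM depleted. Its log2 fold change was -1.59 ± 0.12 SE (adjusted p = 6.07e-08), and its row carries the overlap suffix. Bcl7b fell as well (-0.38), while its relative Bcl7a rose from 14.9 ± 0.92 to 30.0 ± 2.87 CPM (SD, n = 3 per group; log2 fold change 1.01, adjusted p = 1.71e-06). Gltscr1l, which belongs like Brd9 to non-canonical BAF, rose from 29.1 ± 3.42 to 50.5 ± 5.24 CPM (log2 fold change 0.80, adjusted p = 1.95e-05). Ss18, shared by BAF and non-canonical BAF, rose by 0.32 on the log2 scale.

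ISWI partners went both ways, with 2 higher and 3 lower of 7 tested (28.6% and 42.9%, median log2 fold change -0.03, and 0.13 with library totals). Chrac1, a histone-fold subunit of CHRAC, fell from 42.6 ± 1.05 to 22.3 ± 0.61 CPM (SD, n = 3 per group; log2 fold change -0.93, adjusted p = 6.18e-07), whereas Pole3, its histone-fold partner, rose from 51.5 ± 3.73 to 70.5 ± 5.45 CPM (log2 fold change 0.45, adjusted p = 6.65e-04). Hmgxb4 and Rbbp7, the latter with the overlap suffix, fell (-1.08 and -0.61) and Baz2b, the relative of Baz2a, rose (0.54, adjusted p = 0.00829). Of 10 NuRD partners of CHD3 and CHD4, 6 fell and 0 rose (median log2 fold change -0.24), where 30.6% of all tested genes fell. With library totals 2694 of all 12024 tested genes fell and 4962 rose, against 2 and 1 of these partners. Without Spt5-depleted replicate 1, 4 of these partners fell, where 3281 of 12283 genes did. Without replicate 2 it was 6 (3286 of 12247 genes), and without replicate 3 it was 4 (3338 of 12240 genes). Mta3 led the NuRD partners that fell, with 42.8, 46.3 and 49.3 CPM in WT and 22.1, 17.2 and 19.2 CPM in depleted libraries (log2 fold change -1.25 ± 0.11 SE, adjusted p = 2.23e-07). MTA3 is known in B cells as a cofactor of BCL6. Its relatives Mta1 and Mta2 fell less (-0.41 and -0.33), and the deacetylase genes Hdac1 and Hdac2 differed by 0.06 and -0.22 on the log2 scale (adjusted p = 0.629 and 0.0356).

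Of 25 partners in INO80, SRCAP and TIP60-p400 complexes 15 fell and 2 rose (60% and 8%), with a median log2 fold change of -0.31. Among all tested genes 30.6% fell and 31.8% rose. With library totals 2694 of all 12024 tested genes fell and 4962 rose, against 10 and 2 of these partners. Without Spt5-depleted replicate 1, 11 of these partners fell, where 3281 of 12283 genes did. Without replicate 2 it was 14 (3286 of 12247 genes), and without replicate 3 it was 13 (3338 of 12240 genes). The 2 partners that rose were H2afv and H2afz, which encode the H2A.Z variants that these complexes exchange rather than subunits of them. H2afv went from 38.0 ± 2.42 to 74.1 ± 5.53 CPM and H2afz from 189 ± 11.4 to 296 ± 24.7 CPM (SD, n = 3 per group; log2 fold changes 0.96 and 0.65, adjusted p = 6.30e-07 and 2.12e-05). Kat5, the TIP60 acetyltransferase, fell the most, with 56.9, 57.1 and 68.0 CPM in WT and 22.4, 20.1 and 23.5 CPM in depleted libraries (log2 fold change -1.46 ± 0.10 SE, adjusted p = 2.96e-08). Yeats4, a histone acetylation reader shared by SRCAP and TIP60-p400, fell from 98.9 ± 2.23 to 48.6 ± 2.06 CPM (log2 fold change -1.03, adjusted p = 1.06e-07), and Morf4l2 fell by 0.96 on the log2 scale. Trrap, the large scaffold that binds p400, had 132 ± 28.8 and 131 ± 9.94 CPM (SD, n = 3 per group; adjusted p = 0.973).

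**Figure D5:**
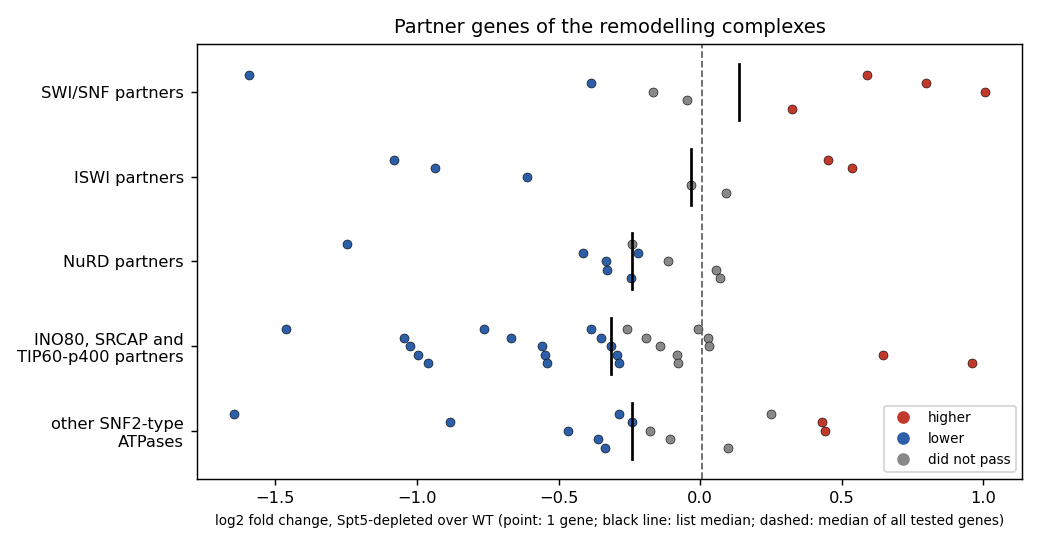
Log2 fold change (Spt5-depleted over WT) of single partner genes in 5 lists; black lines are list medians and the dashed line is the median of all tested genes. In the list for INO80, SRCAP and TIP60-p400 15 of 25 genes are lower (blue) and 2 higher (red), while SWI/SNF partners reach from -1.59 (Phf10) to 1.01 (Bcl7a).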

How the data were processed

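The deposited table holds raw read counts per gene for 3 WT and 3 Spt5-depleted poly(A) libraries made with a Lexogen SENSE kit, per the labels' protocols. The 18 samples of other assays were not used here. Tools named in the submitters' processing notes are featureCounts 1.5.0-p1, TopHat, Bowtie2 2.1.0, cutadapt 1.10 and DESeq2 1.10.1, with build mm9, without their order. The authors' log2 fold changes and adjusted p-values in the same table were used only where they are named. Symbols are the part of each name before its first _ sign; 2269 of 14106 rows carry a suffix, 6 of them members (Smarca2, Chd2, Chd4, Ep400, Ino80e and Ino80dos).

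Counts were filtered with filterByExpr (12024 genes kept), scaled by TMM and tested in R 4.3.3 with edgeR 4.0.16, two-sided and Benjamini-Hochberg adjusted over all tested genes. SEs come from the F statistic. The fit was tested on simulated data. Pair ratios used a pseudocount of 0.5. Replicate pairs differed beyond sampling noise, and WT pairs more than depleted pairs (chi-square per degree of freedom 28.0 to 33.2 in WT and 6.45 to 10.8 in depleted libraries). Alternatives were other scalings and filters, DESeq2 1.42.0, limma 3.58.1 voom, a replicate block and leaving out each library. Values in every library are given for all ATPases and for up to 4 rises and 4 falls per family, and up to 3 each way are named per partner list; further genes were chosen after their values were seen. Members and lists were chosen with earlier results of these data known. A listed cell type marker is not reported here. Promoters are RefSeq's (GRCm38.p6).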

Additional observations from a re-analysis of the deposited data

How the results depend on the processing

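Under 13 alternative settings 20 of the 32 called members kept their call and sign in every one, 4 that rose (Arid1b, Baz2a, Smarcc2 and Smarcd2) and 16 that fell. The same count is not given for all tested genes, so whether this split is particular to the members cannot be told. Against 13 rises and 19 falls, library totals gave 16 and 16, DESeq2 size factors 11 and 19, no filter 11 and 19, the DESeq2 Wald test 12 and 20, and voom 13 and 18. Over all tested genes these settings gave, in the same order, 4962 and 2694, 3776 and 3711, 4047 and 3867, 3614 and 3560, and 3825 and 3640. The main fit gave 3823 and 3681. Leaving out each library gave 6 to 13 rises over all members, 3 to 5 in SWI/SNF, 0 to 3 in CHD and 0 to 2 in INO80, and 16 to 20 falls over all members. Over all tested genes leaving out a library gave 3431 to 3784 rises and 3281 to 3678 falls. SWI/SNF rises were 3 with DESeq2 size factors and 3 with no filter. The log2 difference of Smarca4 to Smarca2 was -0.03 without WT replicate 2 and -0.0457 without Spt5-depleted replicate 2 (-0.0457 to 0.13 over the 6 libraries), and that of Arid1a to Arid2 was 0.0457 without WT replicate 3 (-0.12 to 0.0457). The cause was not tested. Libraries of the same replicate number did not deviate together over all tested genes (correlations 0.04, -0.04 and -0.01). The numbers at the end of the sample titles are consecutive for each WT and depleted library of the same replicate number. Whether such libraries were prepared together is not stated, and these correlations cannot decide it. With a replicate block 12 members rose and 18 fell, against 3755 and 3614 of all genes, and Dpf2 and Arid5b did not pass (edgeR adjusted p = 0.0951 and 0.0767).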

Other observations

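ATPases of the same SNF2 type outside the 4 families gave 7 falls and 2 rises among 13 tested (53.8% and 15.4%). Among all tested genes 30.6% fell and 31.8% rose. The median of these ATPases was -0.24 on the log2 scale. With library totals 2 of them fell and 4 rose, where 2694 of all 12024 tested genes fell and 4962 rose. Without Spt5-depleted replicate 2, 3 of them fell, where 3286 of 12247 genes did. Without Spt5-depleted replicate 3, 4 of them fell, where 3338 of 12240 genes did. Ercc6l2, a relative of the repair gene ERCC6, was at 356, 365 and 351 CPM in WT and at 109, 113 and 121 CPM in depleted libraries. The groups were far apart, a 3.13-fold fall (log2 fold change -1.65 ± 0.08 SE, edgeR adjusted p = 1.01e-09). Hells, also called LSH, which is known to support DNA methylation, fell from 128 ± 8.56 to 69.6 ± 6.51 CPM (SD, n = 3 per group; log2 fold change -0.88, edgeR adjusted p = 1.56e-06). Atrx, the ATPase that deposits histone H3.3 at repeats, fell by 0.36 on the log2 scale, and Spt5-depleted replicate 3 held 159 CPM against 128 and 124 CPM in the other depleted libraries. Ercc6l and Rad54l2 rose (log2 fold changes 0.44 and 0.43).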
